A study of Homo sapiens with 15 samples.

Results

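The 8 genes described here are the ERBB receptors EGFR, ERBB2 and ERBB3 and the EGF-like ligands AREG, EREG, TGFA, BTC and NRG1. They were taken by name from a table of 23368 genes and followed through all 15 RNA-seq libraries of 3 breast cancer cell clones. WT6 and WT10 cells carry a doxycycline-inducible FLAG-tagged wild type RBM47, an RNA-binding protein, and MUT3 cells carry the frameshift mutant RBM47-I281fs in the same retroviral vector. Each clone grew from a single sorted cell and gave 1 library without doxycycline, the antibiotic that switches the transgene on, and 1 at each of 1, 2.5, 5 and 25 ng/ml. The labels give MDA231, a triple negative breast cancer line, for all clones, whereas the methods of the study derive WT10 and MUT3 from the brain metastatic derivative 231-BrM2 and WT6 from CN34-BrM2, a brain metastatic line of other origin. Parental line and single-cell origin therefore cannot be told apart in the comparison of WT6 with WT10, which carry the same transgene, and the transgene differs as well between WT6 and MUT3. WT10 and MUT3 are 1 clone each.

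ERBB receptors are tyrosine kinases of the cell surface that pair with each other when an EGF-like ligand binds. AREG, EREG, TGFA and BTC bind EGFR, and BTC and EREG also bind ERBB4. NRG1 binds ERBB3 and ERBB4. ERBB2 has no known ligand and acts as the preferred partner of the others, and ERBB3 has a weak kinase and signals mainly through its partners. The ligands are made as membrane proteins and are released by metalloproteases such as ADAM17. Triple negative breast cancer cells commonly carry high EGFR without amplified ERBB2.

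In hg19 (GRCh37) with GENCODE release 44, EREG lies at chr4:75230862-75254466, AREG at chr4:75310853-75320722 and BTC at chr4:75669969-75719733, the first 2 genes on the plus strand and BTC on the minus strand, so that 3 of the ligands share a cluster. EGFR lies at chr7:55086710-55279321, ERBB2 at chr17:37844167-37886679 and ERBB3 at chr12:56470583-56497289, all on the plus strand. TGFA lies at chr2:70674416-70781325 on the minus strand. Values are reads over the exons of each gene. The annotation places EGFR-AS1 opposite EGFR and MIEN1 and PGAP3 opposite ERBB2, and whether the library kit kept the strand of the RNA is not given in the sources used here.

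The start sites of AREG and EREG, neighbours that were both far higher in WT6 cells and moved in opposite directions with the dose there, are shown by the 250 bases before each. The sequences are those of RefSeq (GRCh38.p14), found without a mismatch in GRCh37 at chr4:75310603-75310852 for AREG and at chr4:75230612-75230861 for EREG, both plus strand and 5′ to 3′. Capitals mark a cAMP response element (TGACGTCA, searched on both strands) and a TATA box (TATAAA, searched on the gene's strand).
AREG: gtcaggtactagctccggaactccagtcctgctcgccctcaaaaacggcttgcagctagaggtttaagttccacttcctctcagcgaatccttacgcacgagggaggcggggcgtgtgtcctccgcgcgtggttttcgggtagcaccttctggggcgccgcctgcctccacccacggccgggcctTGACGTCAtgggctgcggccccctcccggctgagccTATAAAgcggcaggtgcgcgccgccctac
EREG: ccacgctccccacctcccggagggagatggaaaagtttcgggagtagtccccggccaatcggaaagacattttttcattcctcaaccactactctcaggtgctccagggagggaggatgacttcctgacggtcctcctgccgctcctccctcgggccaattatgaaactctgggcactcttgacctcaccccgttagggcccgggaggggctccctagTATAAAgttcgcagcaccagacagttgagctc
Both windows hold TATAAA, which starts 29 bases before the start site in AREG and 32 bases before it in EREG. The AREG window also holds TGACGTCA, 65 bases before the start site. Of 35116 RefSeq promoter windows of this length, 6.8% hold TATAAA and 1.65% hold TGACGTCA. The AP-1 element TGACTCA, found in 4.2% of the windows on either strand, is in neither sequence. A match of letters is a description and not evidence of binding. The AREG window matched hg19 a second time, at chr4:75480379-75480628, before AREGB, a near copy of AREG at chr4:75480629-75490486. Of 1160 windows of 75 bases along the longest AREG transcript, 1085 (93.5%) occur in AREGB as well. The table holds no row for AREGB, so the level of AREG is uncertain to the extent that reads matching both copies were discarded.

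The transgene was checked first. RBM47 rose from 258 normalized counts (reads divided by the library's size factor) in untreated WT6 cells to 3137, 8094, 3966 and 10425 at 1, 2.5, 5 and 25 ng/ml, so that WT6 at 5 ng/ml lay below WT6 at 2.5 ng/ml. It rose from 168 to 827, 2822, 8134 and 19877 in WT10 cells and from 73.8 to 92.1, 336, 949 and 22084 in MUT3 cells. The libraries held 14955172 to 44771871 reads on genes (median 18152381). The libraries of WT6 at 5 and 25 ng/ml stood apart. With the genes ordered by their longest transcript and split into 5 classes, the median log2 change against untreated WT6 fell from 0.54 in the shortest class to -0.38 in the longest at 5 ng/ml and from 0.53 to -0.44 at 25 ng/ml. In WT10 at 25 ng/ml it fell from 0.06 to -0.08. Results that rest on the 2 WT6 libraries are given with and without them. VIM (50755 to 104639) and CD44 (7100 to 22521) were high in every library, and ESR1, PGR and CDH1 did not exceed 23.8 in any. Of 5 markers of other cell types, 4 stayed at or below 73.4 in every library, with PTPRC at 0 in all MUT3 libraries. DCN, a fibroblast marker, reached 190, 226, 222, 454 and 735 in WT6 cells along the doses and at most 1.08 in WT10 and MUT3 libraries. The 5 markers summed to 273 to 810 in WT6, 21.5 to 71.4 in WT10 and 21.3 to 64.4 in MUT3 cells, and their part in the differences of WT6 was not tested.

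**Figure D1:**
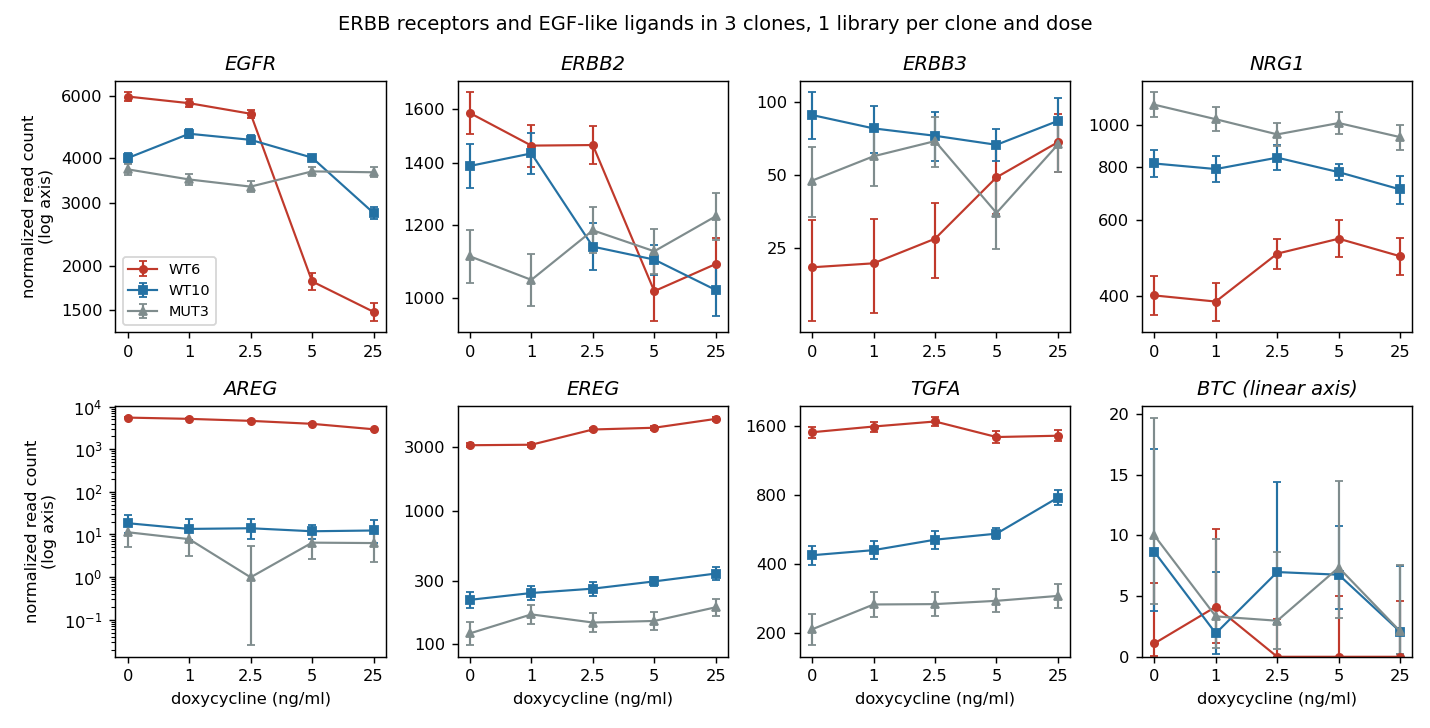
Normalized read count of each gene (log axis, except a linear axis for BTC) against the doxycycline dose in ng/ml, in equal steps, for WT6 (red circles), WT10 (blue squares) and MUT3 (gray triangles). Each point is 1 library and bars are 95% intervals of counting error only. EGFR drops from 5342 to 1807 between 2.5 and 5 ng/ml in WT6, AREG lies at 2944 and above in WT6 and at most at 18.4 elsewhere, and EREG ends above its untreated level in all 3 clones.

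The dose response was tested with limma in one fit over the 15 libraries, as the slope of log2(normalized count + 1) on log2(dose + 1) in each clone. It took in 12644 genes, those averaging at least 10 normalized counts in each clone, and 6 of the 8 members were among them. AREG (mean 6.55 in MUT3) and BTC (means of 1.04, 5.28 and 5.15 in WT6, WT10 and MUT3) were not. Slopes are log2 changes per unit of log2(dose + 1), and p-values are Benjamini-Hochberg adjusted over all genes tested. In WT6 cells ERBB3 and EREG rose and EGFR and ERBB2 fell, that is 4 of 6, where 57.5% of all genes tested passed the threshold of 0.05. In WT10 cells TGFA and EREG rose and ERBB2 fell, 3 of 6, where 20.0% of all genes passed. In MUT3 cells 0 of 6 passed in limma or in edgeR, where 0% of all genes passed in limma (295 genes had an unadjusted p under 0.05) and edgeR called 1 gene. EREG and TGFA had an unadjusted p under 0.05 there. RBM47 itself, at 25 ng/ml 299 times (232 to 393) as high as untreated in MUT3, also missed the threshold. Its limma slope there had an unadjusted p of 8.18e-06 and an adjusted p of 0.0517. The lack of calls in MUT3 therefore does not show a lack of change. Over the 6 genes the median slope was 0.03 in WT6, -0.03 in WT10 and 0.04 in MUT3 cells, against 0.01, 0.00 and 0.00 over all genes tested.

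EGFR, the receptor of most of the ligands, was on the mean over doses the highest of the 3 receptors per kilobase of exon in each clone, although in WT6 at 25 ng/ml it lay at 93.1 per kilobase against 105 for ERBB2. It counted 5971, 5720 and 5342 in WT6 cells at 0, 1 and 2.5 ng/ml and 1807 and 1484 at 5 and 25 ng/ml. In WT10 cells it counted 4011, 4694, 4513, 4022 and 2812 along the doses. In MUT3 cells it stayed between 3335 and 3729 in all 5 libraries. The drop in WT6 thus fell between 2.5 and 5 ng/ml, and in WT10 the library at 25 ng/ml was the one below the others. At 25 ng/ml EGFR stood at 0.248 of its untreated level in WT6 (95% interval of counting error 0.233 to 0.265), at 0.701 in WT10 (0.667 to 0.737) and at 0.981 in MUT3 (0.934 to 1.03). In these bulk libraries fewer cells with EGFR mRNA and less EGFR mRNA per cell cannot be told apart. The slope was -0.50 (SE 0.08, adjusted p = 0.00011) in WT6, -0.13 (SE 0.07, adjusted p = 0.23) in WT10 and 0.00 (SE 0.07, adjusted p = 1.0) in MUT3. With the WT6 libraries at 5 and 25 ng/ml left out, the WT6 slope was -0.09 (adjusted p = 0.645). The WT10 slope, still -0.13 but with a smaller spread, then passed (adjusted p = 0.00352). Of all genes tested 38.9% passed in WT10 there, against 20.0% in the fit as reported. Without WT10 at 25 ng/ml the WT10 slope was 0.00.

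EGFR belongs to the longest class of genes by transcript, and its log2 change in WT6 was -1.72 at 5 ng/ml and -2.01 at 25 ng/ml, against class medians of -0.38 and -0.44. With the trends with transcript length and GC content removed from every library, its WT6 slope was -0.39 (adjusted p = 5.09e-05). EGFR and RBM47 are set side by side here across clones of different parental lines, and a link across clones was not tested. Within clones, with log2 RBM47 in place of the dose, EGFR did not pass, nor did any other member tested. Of all 12644 genes, 2 passed in WT6, 89 in WT10 and 1 in MUT3. WT6 at 5 ng/ml is among the libraries that stood apart. RBM47 counted 8094 in WT6 at 2.5 ng/ml and 8134 in WT10 at 5 ng/ml, where EGFR stood at 0.895 (0.863 to 0.928) and 1 (0.966 to 1.04) of the untreated level, while WT6 at 5 ng/ml, with 3966 counts of RBM47, had 0.303 (0.285 to 0.321).

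ERBB2, the receptor without a ligand of its own, counted 1584, 1461, 1463, 1018 and 1089 in WT6 cells at 0, 1, 2.5, 5 and 25 ng/ml. It counted 1389, 1433, 1137, 1101 and 1021 in WT10 and 1110, 1047, 1184, 1124 and 1226 in MUT3 cells. In both wild type clones the libraries at 5 and 25 ng/ml lay below the untreated one, whereas the MUT3 libraries lay on both sides of theirs. The level at 25 ng/ml was 0.687 (0.631 to 0.748) of untreated in WT6, 0.735 (0.676 to 0.799) in WT10 and 1.1 (1.01 to 1.21) in MUT3. The slopes were -0.13 (SE 0.04, adjusted p = 0.00523) in WT6 and -0.11 (SE 0.04, adjusted p = 0.043) in WT10, against 0.04 (SE 0.04, adjusted p = 1.0) in MUT3. The WT6 slope was -0.07 (adjusted p = 0.658) without WT6 at 5 and 25 ng/ml and -0.13 (adjusted p = 0.0656) in a fit of WT6 alone. The WT10 call sat at the threshold and was lost on leaving out any of 11 of the 15 libraries (WT6 at 0 and 1, WT10 at 0, 1, 5 and 25, and each MUT3 library), with slopes from -0.15 to -0.09.

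ERBB3, which signals through its partners, was low throughout. It counted 20.8, 21.6, 27.3, 49 and 68.5 in WT6 cells, from 19 to 55 reads. It counted 88.7, 78.1, 72.8, 66.8 and 83.9 in WT10 and 47.5, 59.9, 69.2, 34.9 and 67 in MUT3 cells. WT6 started lowest and at 25 ng/ml overlapped the other clones, which showed no order with the dose. The level at 25 ng/ml was 3.29 (1.92 to 5.87) of untreated in WT6, 0.946 (0.687 to 1.3) in WT10 and 1.41 (0.93 to 2.17) in MUT3. The WT6 slope was 0.40 (SE 0.09, adjusted p = 0.00175). It was 0.48 (adjusted p = 0.0675) without WT6 at 25 ng/ml and 0.21 (adjusted p = 0.795) without WT6 at 5 and 25 ng/ml. The slopes of WT10 (-0.02, SE 0.07) and MUT3 (0.05, SE 0.08) did not pass.

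AREG, or amphiregulin, was the member with the largest ratios of WT6 to the other clones. It counted 5527, 5162, 4632, 3946 and 2944 in WT6 cells at 0, 1, 2.5, 5 and 25 ng/ml. It counted 18.4, 13.5, 14, 11.9 and 12.4 in WT10 cells (12 to 30 reads) and 11.3, 7.77, 0.988, 6.43 and 6.29 in MUT3 cells (1 to 9 reads). The lowest WT6 library thus lay far above the highest of the other clones, and within WT6 each dose lay below the one before. The untreated ratio of WT6 was 301 (188 to 516) to WT10 and 491 (258 to 1070) to MUT3, without a replicate check. At 25 ng/ml AREG stood at 0.533 (0.507 to 0.559) of its untreated level in WT6. With the filter set on the mean of all libraries, AREG entered among 13637 genes. It did so through its level in WT6, with a mean of 4442 there against 14 in WT10 and 6.55 in MUT3. The clone whose slope was tested is thus the one that let AREG in. With this filter the WT6 slope was -0.20 (SE 0.04, adjusted p = 0.00027), and 55.4% of those genes passed. It was -0.14 (adjusted p = 0.287) without WT6 at 5 and 25 ng/ml and -0.20 (adjusted p = 0.319) without precision weights. AREG is in the shortest class of genes, whose median log2 change in WT6 at 25 ng/ml was 0.53 against -0.91 for AREG, and with length and GC trends removed its slope was -0.34 (adjusted p = 8.59e-06). In WT10 and MUT3 the intervals of counting error of the untreated and 25 ng/ml libraries overlapped, so that no change was detectable at this depth. The MUT3 library at 2.5 ng/ml held 1 AREG read, 0.0878 (0.002 to 0.634) of the untreated level.

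EREG, or epiregulin, counted 3117, 3144, 4090, 4215 and 4912 in WT6, 216, 243, 262, 297 and 340 in WT10 and 121, 168, 146, 150 and 190 in MUT3 cells. In all 3 clones each dose lay above the untreated library, also under the mutant transgene. The levels at 25 ng/ml were 1.58 (1.5 to 1.65), 1.57 (1.31 to 1.88) and 1.56 (1.21 to 2.02) times the untreated ones in WT6, WT10 and MUT3. The slopes were 0.15 (SE 0.03, adjusted p = 0.000309), 0.14 (SE 0.04, adjusted p = 0.0155) and 0.11 (SE 0.04, adjusted p = 1.0, unadjusted p = 0.0255). Without WT6 at 5 and 25 ng/ml the WT6 slope was 0.21 (adjusted p = 0.0748). The WT10 call was lost without WT10 at 25 ng/ml (0.17, adjusted p = 0.273) or without untreated WT10 (0.13, adjusted p = 0.0789). In WT6 the class of genes of like transcript length had a median of -0.23 at 25 ng/ml, against 0.66 for EREG.

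TGFA, or transforming growth factor alpha, counted 1508, 1597, 1680, 1437 and 1456 in WT6, 438, 461, 512, 544 and 782 in WT10 and 208, 267, 268, 277 and 291 in MUT3 cells. WT10 lay higher at each step, most between 5 and 25 ng/ml, the MUT3 libraries with doxycycline all lay above the untreated one, and WT6 had no order with the dose. The level at 25 ng/ml was 1.79 (1.58 to 2.02) of untreated in WT10, 1.4 (1.15 to 1.71) in MUT3 and 0.966 (0.892 to 1.04) in WT6. The slope was 0.18 (SE 0.03, adjusted p = 0.00109) in WT10, 0.08 (SE 0.04, adjusted p = 1.0) in MUT3 and -0.02 (SE 0.03, adjusted p = 0.489) in WT6. Without WT10 at 25 ng/ml the WT10 slope was 0.13 (adjusted p = 0.311). The sign of the WT6 slope turned with length and GC trends removed (0.01) and without WT6 at 5 and 25 ng/ml (0.09).

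BTC, or betacellulin, lay near the floor of 3 reads, which was worth 1.19 to 4.09 normalized counts. It counted 1.1, 4.12, 0, 0 and 0 in WT6, 8.65, 1.93, 6.98, 6.76 and 2.07 in WT10 and 10, 3.33, 2.97, 7.35 and 2.1 in MUT3 cells. The 3 WT6 libraries at 0 allowed up to 2.56, 4.09 and 3.74 normalized counts, taking 3 reads as the upper limit. No difference between doses was detectable at this depth.

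NRG1, or neuregulin 1, the ligand of ERBB3 (chr8:31496738-32713184, plus strand), counted 401, 388, 502, 544 and 495 in WT6, 815, 791, 841, 778 and 709 in WT10 and 1118, 1034, 953, 1013 and 939 in MUT3 cells. The ranges of the 3 clones did not overlap at any dose. The level at 25 ng/ml was 1.23 (1.07 to 1.42) of untreated in WT6, 0.87 (0.783 to 0.966) in WT10 and 0.84 (0.764 to 0.922) in MUT3. The slopes of 0.08 (SE 0.03, adjusted p = 0.0573), -0.04 (SE 0.03, adjusted p = 0.383) and -0.05 (SE 0.03, adjusted p = 1.0) did not pass. In WT6 the slope passed with length and GC trends removed (0.20, adjusted p = 0.000349), without WT6 at 25 ng/ml (0.19, adjusted p = 0.0152) and without WT6 at 2.5 ng/ml (0.08, adjusted p = 0.0413). NRG1 is in the longest class of genes, where the median log2 change in WT6 at 25 ng/ml was -0.44 against 0.30 for NRG1.

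The dose slopes of WT10 and MUT3 were compared directly, which sets wild type RBM47 against the mutant in clones of the same line, 1 clone each. The paper reports that the mutant protein was low even where its mRNA was high. Equal doses below 25 ng/ml did not give equal RBM47 mRNA. It counted 827, 2822 and 8134 in WT10 at 1, 2.5 and 5 ng/ml, and 92.1, 336 and 949 in MUT3. At 25 ng/ml it counted 19877 in WT10 and 22084 in MUT3. Of the 6 genes 0 passed in limma or in edgeR, where 5.62% of all genes tested passed, and ERBB2 was the 1 member with an unadjusted p under 0.05. The difference of slopes, WT10 minus MUT3, was -0.14 for ERBB2 (SE 0.05, adjusted p = 0.101), -0.13 for EGFR (SE 0.10, adjusted p = 0.481) and 0.10 for TGFA (SE 0.05, adjusted p = 0.228). It was 0.03 for EREG (SE 0.06), 0.00 for NRG1 (SE 0.04) and -0.07 for ERBB3 (SE 0.11). The calls of EREG and TGFA in WT10 are thus not shown to differ from MUT3. When WT6 at 5 and 25 ng/ml, which also enter the estimate of the spread, were left out, ERBB2 (-0.15, adjusted p = 0.0049) and EGFR (-0.13, adjusted p = 0.0359) passed, where 24.2% of all genes did. The EGFR difference rested on WT10 at 25 ng/ml, since leaving out that library alone gave -0.0025. ERBB2 also passed without WT6 at 5 ng/ml alone (-0.15, adjusted p = 0.0105), where 17.9% of all genes did.

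The slopes of the 2 wild type clones differed for 3 of the 6 genes, where 14.4% of all genes tested passed. This comparison and the one before share the WT10 libraries. The difference of slopes, WT6 minus WT10, was -0.37 for EGFR (SE 0.11, adjusted p = 0.0352), 0.41 for ERBB3 (SE 0.11, adjusted p = 0.0324) and -0.21 for TGFA (SE 0.04, adjusted p = 0.0139). The EGFR slope was the more negative in WT6, ERBB3 passed in WT6 alone and TGFA in WT10 alone. The difference was 0.12 for NRG1 (SE 0.05, adjusted p = 0.0832), -0.02 for ERBB2 (SE 0.05, adjusted p = 0.749) and 0.01 for EREG (SE 0.05, adjusted p = 0.863). NRG1 passed with length and GC trends removed (0.23, adjusted p = 0.0108) and without WT6 at 5 ng/ml (0.11, adjusted p = 0.0452). Of all genes tested 15.7% and 29.4% passed in these 2 settings. Leaving out both high-dose WT6 libraries gave differences of 0.04 for EGFR (adjusted p = 0.989), 0.22 for ERBB3 (adjusted p = 0.965) and -0.10 for TGFA (adjusted p = 0.889). Leaving out single libraries ended the EGFR call for 8 of the 15 (WT6 at 1 and 25, WT10 at 0, 1 and 5, MUT3 at 0, 1 and 2.5), with differences of -0.47 to -0.29, and it also ended without precision weights (-0.37, adjusted p = 0.0614). The ERBB3 call ended without WT6 at 1 or 25 or WT10 at 0 or 1 (0.36 to 0.50), and the TGFA call without WT6 at 25 or WT10 at 0 or 25 (-0.23 to -0.15).

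The clones also differed before doxycycline. The untreated level, taken as the start of each fitted line, differed between WT6 and the mean of WT10 and MUT3 for 6 of 6 genes, where 64.3% of all genes tested passed. With 1 clone against 2, these p-values measure the spread of libraries around the dose lines and not the spread between clones. The difference on the log2 scale was 4.18 (SE 0.10) for EREG and 2.35 (SE 0.09) for TGFA. It was 0.76 (SE 0.23) for EGFR and 0.35 (SE 0.11) for ERBB2, and it was -1.70 (SE 0.30) for ERBB3 and -1.20 (SE 0.11) for NRG1, with adjusted p from 1.01e-13 for EREG to 0.0112 for ERBB2. Among the members tested, WT6 cells therefore had more of EGFR and its ligands EREG and TGFA and less of ERBB3 and its ligand NRG1. Other EGFR ligands went the other way. Untreated HBEGF in WT6 stood at 0.561 (0.518 to 0.608) of WT10 and 0.758 (0.694 to 0.827) of MUT3. BTC and EGF were lower too, with 1 read each in untreated WT6. In the untreated libraries themselves EREG was 14.4 (12.5 to 16.7) and 25.7 (21 to 31.8) times as high in WT6 as in WT10 and MUT3. TGFA was 3.44 (3.08 to 3.85) and 7.26 (6.18 to 8.59) times as high, EGFR 1.49 and 1.6 times and ERBB2 1.14 and 1.43 times. ERBB3 stood at 0.235 and 0.438 and NRG1 at 0.492 and 0.359 of the levels in WT10 and MUT3. The ERBB2 call ended without untreated WT6 (0.33, adjusted p = 0.0736).

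Between WT10 and MUT3, clones of the same line, 4 of 6 genes differed in the untreated level, where 28.2% of all genes tested passed. WT10 was higher for TGFA (0.83, SE 0.13, adjusted p = 0.000182), EREG (0.74, SE 0.15, adjusted p = 0.00201) and ERBB2 (0.38, SE 0.13, adjusted p = 0.0394) and lower for NRG1 (-0.37, SE 0.11, adjusted p = 0.0242). The differences of EGFR (0.41, SE 0.26, adjusted p = 0.265) and ERBB3 (0.65, SE 0.28, adjusted p = 0.0978) did not pass. The ERBB2 call ended on leaving out any of 8 libraries (WT6 at 1, WT10 at 0 and 1, and each MUT3 library), with values of 0.31 to 0.42, and the NRG1 call on leaving out WT10 or MUT3 at 0 or 1 ng/ml (-0.38 to -0.31). Without WT6 at 5 and 25 ng/ml EGFR passed too (0.40, adjusted p = 0.00597), where 46.7% of all genes tested did. In the untreated libraries themselves WT10 stood at 2.11 (1.76 to 2.54) of MUT3 for TGFA, 1.78 (1.39 to 2.3) for EREG, 1.25 (1.15 to 1.36) for ERBB2 and 0.729 (0.66 to 0.804) for NRG1. For EGFR it stood at 1.08 (1.02 to 1.13), closer to 1 than the start of the fitted lines, and for ERBB3 at 1.87 (1.26 to 2.82).

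Levels of different genes were compared only per kilobase of exon, as the mean of the 5 libraries of a clone with the range over doses. The level of AREG may be too low, and its rank uncertain, to the extent that reads also matching AREGB were discarded. In WT6 cells the order was AREG (2710, 1790 to 3370), EREG (682, 546 to 860), TGFA (312, 292 to 342), EGFR (255, 93.1 to 375), ERBB2 (128, 98.6 to 153), NRG1 (21.8), ERBB3 (3.2) and BTC (0.393). The ranges of TGFA and EGFR and those of EGFR and ERBB2 overlapped. In WT10 cells the order was EGFR (252), ERBB2 (118), TGFA (111), EREG (47.6), NRG1 (36.8), AREG (8.55), ERBB3 (6.67) and BTC (1.99), with overlap of ERBB2 with TGFA, EREG with NRG1 and AREG with ERBB3. In MUT3 cells it was EGFR (225), ERBB2 (110), TGFA (53.4), NRG1 (47.3), EREG (27.1), ERBB3 (4.76), AREG (3.99) and BTC (1.94), with overlap of TGFA with NRG1, ERBB3 with AREG and AREG with BTC. The EGFR ligands AREG and EREG thus stood above all receptors in WT6 at every dose. TGFA stood above EGFR on the mean alone, since in untreated WT6 cells EGFR lay at 375 and TGFA at 307. Among the members, EGFR and ERBB2 stood above all ligands at every dose in MUT3 cells, and EGFR did in WT10 cells. HBEGF, a further EGFR ligand, was not ranked. Its mean count was 1790 in WT10 and 1485 in MUT3 over 2990 bases of exon. EGFR had means of 4011 and 3579 over 15941 bases, so that per kilobase HBEGF stood above EGFR on the mean in both clones. Dividing by the longest transcript instead kept the rank of 6 genes in WT6 and MUT3 and of 4 in WT10. In WT6 it put EGFR (410) above TGFA (373).

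Of the 7 further receptors and ligands of the family, HBEGF, an EGFR ligand, was the 1 that entered the fit. It counted 1036, 924, 885, 856 and 518 in WT6, 1675 to 1936 in WT10 and 1367 to 1573 in MUT3 cells. Like AREG it fell with each dose in WT6 (slope -0.20, SE 0.03, adjusted p = 6.3e-05), to 0.5 (0.445 to 0.562) of untreated at 25 ng/ml, but unlike AREG it was lowest in WT6. Without WT6 at 5 and 25 ng/ml the slope was -0.13 (adjusted p = 0.267), and without WT6 at 25 ng/ml alone it was -0.11 (adjusted p = 0.0573). EGF counted at most 1.36 in WT6 cells and 8.68 to 42.5 in WT10 cells, where the library at 25 ng/ml was the highest, and 11.3 to 15.6 in MUT3 cells. NRG2, a neuregulin, counted 1.71 to 9.26 in WT6, 58 to 105 in WT10 and 94.3 to 116 in MUT3 cells, so that its ranges in WT6 and the other clones did not overlap. NRG4 counted 3.14 to 27.2 over all libraries. ERBB4, a receptor of NRG1, and the ligand EPGN did not exceed 2.72 in any library, and NRG3 was at 0 in all.

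The wider pathway was counted by list, with 34 of 40 genes tested. In WT6 cells 5 rose and 19 fell, where 29.2% of all genes tested rose and 28.3% fell. In WT10 cells 0 rose and 2 fell, where 10.2% rose and 9.83% fell, and in MUT3 cells 0 passed, as over all genes. Of 4 genes of ligand shedding, ADAM10 (slope -0.24, adjusted p = 0.00265) and ADAM17 (-0.15, adjusted p = 0.0165), the proteases that release ligands, fell in WT6, and RHBDF1 (0.12, adjusted p = 0.0132), a rhomboid-like protein that acts on ADAM17, rose. Of 19 adaptors and signalling genes, 3 rose and 9 fell in WT6, in all 12 of 19 where 57.5% of all genes passed, led by PIK3R1 (-0.19), BRAF (-0.18) and STAT3 (-0.16). Of 10 regulators of the receptors or of their signalling, 1 rose and 7 fell in WT6, against the same 29.2% and 28.3% of all genes, led by SPRED1 (-0.23), SOCS5 (-0.21) and the ubiquitin ligase CBL (-0.21). The median slope of the 34 genes in WT6 was -0.09, against 0.01 over all genes. With length and GC trends removed, 6 rose and 4 fell among the adaptors and signalling genes and 2 rose and 5 fell among the regulators. Of all genes tested in that setting 29.6% rose and 29.5% fell. Among the genes of ligand shedding RHBDF1 and ADAM10 (-0.11, adjusted p = 0.0303) kept their calls and ADAM17 did not (-0.06, adjusted p = 0.295). Without WT6 at 5 and 25 ng/ml, 1 of the regulators rose and 0 genes of the other lists passed in WT6. Of all genes tested 1.44% passed there.

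In WT10 cells the kinase AKT1 fell (slope -0.14, adjusted p = 0.00149), as did CBLB (-0.16, adjusted p = 0.0309), a ubiquitin ligase of activated receptors. AKT1 was the 1 pathway gene whose slope differed between WT10 and MUT3 (-0.16, SE 0.03, adjusted p = 0.0186). The AKT1 call in WT10 ended without WT10 at 25 ng/ml (-0.14, adjusted p = 0.184), and its difference from MUT3 ended without WT10 at 25 ng/ml or MUT3 at 0 or 25 ng/ml (-0.16 to -0.14). The CBLB call ended without WT10 at 0, 1 or 25 ng/ml (-0.18 to -0.11).

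The genes whose levels were most like those of each member over the 15 libraries, after each clone was centred on its own mean, were listed by Pearson's r among the genes tested. These values are a description, since the libraries share depth, composition and the 2 WT6 libraries that stood apart. For EGFR they were WWC3 and SON (both 0.993) and ZFYVE20 (0.992), and for ERBB2 SIN3B (0.973), STK10 and MRC2 (both 0.965). For ERBB3 they included C6orf226 (0.946) and SNX21 (0.933). For EREG they were DDR2 (0.923), ARFGAP3 (0.92) and DSC2 (0.906), for NRG1 BOC (0.88), DCLK2 (0.875) and PPAPDC1A (0.856), and for TGFA they included AKIRIN1 (0.941) and TM9SF2 (0.89). No member appeared in the list of another.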

How the data were processed

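PolyA-selected RNA of 15 libraries was sequenced on an Illumina HiSeq as paired-end reads of 75 bases. The authors aligned reads by STAR (genome hg19), counted genes with HTSeq 0.5.4 (version from the submitters' processing notes) in its default settings, which count by strand, and normalized the counts with DESeq. The annotation, and whether the TruSeq kit used was a stranded one, are not given in the sources used here. The deposited table holds a normalized signal, the reads on a gene divided by the library's size factor. Division by the smallest positive value of a column gave whole reads for 100% of the values (tolerance 0.01 reads). Between 56.5% and 59.6% of a library's reads fell in no feature, and these tallies were left out.

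Slopes and untreated levels were fitted with limma 3.58.1 (R 4.3.3) on log2(normalized count + 1) with vooma weights, in 1 fit of 6 coefficients (per clone, an intercept and a log2(dose + 1) slope) and 9 residual degrees of freedom, over 12644 genes with a mean of at least 10 in each clone. Adjusted p-values are Benjamini-Hochberg over all genes tested, with a threshold of 0.05. The fit was tested on simulated data. These held no trend with transcript length and no libraries that stood apart, so the test does not cover such features. Alternatives were TMM scaling, edgeR 4.0.16 on the recovered reads, a pseudocount of 5, other filters, no weights, each clone alone, RBM47 in place of the dose, length and GC trends removed (splines with 4 degrees of freedom) and libraries left out, of which leaving out WT6 at 5 and 25 ng/ml together was added after seeing the data. Intervals at 95% are exact and, like floors, cover counting error only. GENCODE release 44 matched 91.8% of the genes by symbol or older symbol, and the promoters of AREG and EREG were matched by symbol in RefSeq (2 of 2). The members and gene lists were chosen with earlier results of these data known. All 8 members were named, and other pathway genes were the 3 largest slopes per list among those called. Some genes of like pattern are not reported here. With 1 library per condition, p-values measure the spread of single libraries around the dose lines.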

Additional observations from a re-analysis of the deposited data

Results flagged for a closer look

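Slopes on the dose differed between WT6 and WT10 by the test of the difference itself for EGFR (-0.37), ERBB3 (0.41) and TGFA (-0.21), with the clones, parental lines and the WT6 libraries at 5 and 25 ng/ml as described above. HBEGF (-0.17, adjusted p = 0.0204) differed in the same comparison. So did the protease ADAM10 (-0.29) and the negative regulators SPRED1 (-0.23) and SOCS5 (-0.17, adjusted p = 0.0497). Without WT6 at 5 and 25 ng/ml the adjusted p was 0.906 for HBEGF, 0.993 for ADAM10, 0.934 for SPRED1 and 0.998 for SOCS5, with differences of -0.09, -0.01, -0.07 and 0.00. The calls of ADAM10 (-0.16, adjusted p = 0.069) and SOCS5 (-0.09, adjusted p = 0.0759) also ended with length and GC trends removed, and the SOCS5 call ended under most other alternatives, edgeR (adjusted p = 0.0584) among them. The slope of AKT1 differed between WT10 and MUT3 (-0.16). The causes of these differences were not tested.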

How the results depend on the processing

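No paired analysis was possible because each clone and dose has 1 library and the labels give no replicate number. Counts below are genes called in the WT6, WT10 and MUT3 slopes, in WT10 minus MUT3, in WT6 minus WT10, in the untreated level of WT6 against the others and in that of WT10 against MUT3, in this order, and are 7272, 2527, 0, 711, 1817, 8132 and 3562 in the fit as reported, with 4, 3, 0, 0, 3, 6 and 4 of 6 members.

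Without the libraries at 25 ng/ml the WT6 and WT10 slopes fell to 4688 and 17 genes and the slope differences to 0 and 7, with 0 members called in WT10 and in WT6 minus WT10. Without WT6 at 5 and 25 ng/ml, an alternative added after seeing the data, the 5 slope counts were 182, 4915, 13, 3059 and 6 genes, with 0 members in WT6 and in WT6 minus WT10 and 2 in WT10 minus MUT3, and WT10 against MUT3 untreated gave 5903. With log2 RBM47 in place of the dose they were 2, 89, 1, 0 and 0, with 0 members in all. Fitted alone, the clones gave 4158, 3806 and 177 genes. With length and GC trends removed the WT10 slope gave 4018, MUT3 8 and WT10 minus MUT3 1959. Without weights the differences gave 467 and 1198 and MUT3 gave 3, and besides EGFR in WT6 minus WT10 (adjusted p = 0.0614) ERBB2 lost its calls in WT10 (0.0667) and in WT10 against MUT3 untreated (0.06). In MUT3 edgeR called 1, the filter on the mean of all libraries 2 and no filter 14. TMM moved the median of all genes by at most 0.037. Ranking per kilobase of the longest transcript kept 4 of 8 places in WT10.

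Leaving out 1 library at a time gave 4623 to 7891 genes in WT6, 6 to 4142 in WT10, 0 to 4 in MUT3, 0 to 2262 in WT10 minus MUT3, 59 to 3714 in WT6 minus WT10, 7045 to 8967 in the WT6 level and 2105 to 5158 in that of WT10 against MUT3. Members called ranged 4 to 5, 0 to 3, 0 to 0, 0 to 1, 0 to 4, 5 to 6 and 2 to 4. The WT10 and WT10 minus MUT3 counts were lowest without WT10 at 25 ng/ml, and WT6 minus WT10 without untreated WT10.

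Of 436 values of single genes under the other alternatives, 11 changed sign, none of which passed the threshold in the fit as reported or in the alternative, except EGFR in WT6 minus WT10, called in the former: the WT6 slope of TGFA (0.0072 with trends removed, 0.0862 without WT6 at 5 and 25 ng/ml, 0.0059 on RBM47), the WT10 slope of ERBB3 with trends removed (0.0208), and, without the libraries at 25 ng/ml, EGFR in WT10 (0.0011) and MUT3 (-0.0176), ERBB3 in MUT3 (-0.0954), and EGFR (0.0187) and TGFA (-0.0210) in WT10 minus MUT3. EGFR (0.0384) and ERBB2 (0.0434) in WT6 minus WT10 changed sign without WT6 at 5 and 25 ng/ml. On leaving out 1 library, 10 of 645 values did, over ranges of -0.2089 to 0.0011 for EGFR and -0.1546 to 0.0386 for ERBB3 in WT10, -0.0176 to 0.0262 for EGFR and -0.0964 to 0.0814 for ERBB3 in MUT3, -0.2051 to 0.0799 for ERBB3 and -0.0132 to 0.0348 for NRG1 in WT10 minus MUT3, and -0.1051 to 0.0187 for ERBB2 and -0.0218 to 0.0559 for EREG in WT6 minus WT10.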
